A study of Caenorhabditis elegans with 8 samples.

Results

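The neurotransmitter-gated ion channel genes of Caenorhabditis elegans were taken as every row of the count table whose WormBase symbol starts with acr-, lgc-, glr-, nmr- or gab-, which gave 90 of 20389 genes. They are 21 acr-, 56 lgc-, 10 glr-, 2 nmr- genes and gab-1. Messenger RNA had been sequenced from whole worms of strain VC199, whose labelled genotype is sir-2.1(ok434) IV, a deletion allele of the gene for a histone deacetylase. The larvae (4 libraries) are labelled L3 and had grown for 24 hours on NGM plates after an overnight hatch, while the study's methods give a wider L2/L3 window. The embryos (4 libraries) are of mixed stages and came from bleached parents of no synchronised age. Both stages carry the deletion, no wild-type library is labelled, and the stage contrast is the only one these libraries allow. The comparison asked how many of these channel genes were detected at each stage and which were higher in larvae, whose nervous system is further matured.

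Fast chemical transmission runs through 2 kinds of receptor channel in this set. Cys-loop receptors are pentamers of related subunits that open a pore when a transmitter binds. Nematodes have expanded this family, so that beside cation channels gated by acetylcholine (the nicotinic receptors, acr-) there are anion channels gated by acetylcholine, GABA and monoamines, many of them under lgc- symbols. Ionotropic glutamate receptors are tetramers and comprise the AMPA and kainate types (glr-) and the NMDA type (nmr-). In the worm they act in neurons, and the nicotinic and GABA receptors also act in muscle. No worm cell type was separated here, so fewer cells of a type and less RNA per cell cannot be told apart.

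The libraries held 13687095 to 22419153 counts in genes for larvae and 16300947 to 31292935 for embryos. The study's methods call the libraries biological replicates, the labels name no separate cultures, and p-values measure the spread between these libraries. Library names start with MK for all larvae and SEA for all embryos, so whatever that prefix marks and the stage cannot be told apart. The deleted gene sir-2.1 was still counted at 46.3 to 51.8 counts per 1000000 (CPM, per TMM-scaled library) in larvae and 59.1 to 70.2 CPM in embryos; its row covers the whole gene and no wild-type library was used here, so the value does not check the genotype. The stages carried the markers of their labels. The 6 body-wall muscle markers summed to 24910 to 37280 CPM in larvae and 3258 to 4260 CPM in embryos (6 higher, 0 lower of 6 tested). Of these, unc-54 alone had 13790 to 19680 CPM in larvae and 1181 to 1493 CPM in embryos. The 24 synaptic and neuronal genes summed to 3230 to 3961 CPM in larvae and 1359 to 1759 CPM in embryos (15 higher, 2 lower of 24 tested). Much of that larval sum came from egl-3, egl-21 and ida-1. Egl-3 alone had 761.7 to 955.1 CPM in larvae and 42.4 to 80.6 CPM in embryos. The 2 lower in larvae were unc-119 and unc-33. The 8 germline and maternal markers summed to 165.8 to 256.1 CPM in larvae and 443.2 to 1089 CPM in embryos (1 higher, 5 lower of 8 tested). Pharyngeal muscle markers (4 higher of 4), intestine markers (5 higher, 0 lower of 6) and epidermis markers (2 higher, 1 lower of 4 tested) were read beside 36.9% of all genes tested higher and 37.2% lower. The part of tissue composition in the values below was not tested.

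A channel gene was called detected in a stage when every library of that stage had more than 3 counts. By that rule 70 of the 90 genes (77.8%) were detected in larvae and 65 (72.2%) in embryos, against 63.9% and 65.5% of all genes. Both stages detected 62 of them, larvae alone 8 and embryos alone 3, and 17 were detected in neither. The larval 8 are lgc-32, lgc-42, lgc-36, lgc-9, acr-21, acr-6, lgc-54 and nmr-1, an NMDA receptor subunit. The embryonic 3 are acr-7, glr-7 and lgc-6. Genes on these lists could still have reads at the other stage. Nmr-1 had 17, 5, 2 and 7 counts in embryos, and acr-7 had 13, 24, 3 and 20 counts in larvae. Lgc-6 had 1, 4, 1 and 4 counts in larvae, against 23, 10, 7 and 7 counts in embryos. At a mean level of at least 1 TPM (transcripts per 1000000, a level per gene length) the numbers were 43 genes in larvae and 39 in embryos.

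The 17 undetected genes were not all silent, since 1 library at or under 3 counts was enough to fail the rule. Glr-3 had 19, 25, 2 and 26 counts in larvae, against 28, 5, 5 and 2 counts in embryos, and was tested below. Lgc-12 had 3, 18, 10 and 12 counts in larvae, against 5, 4, 1 and 3 counts in embryos. The 17 also include glr-9 and glr-10 and a cluster on the X chromosome. Lgc-13 to lgc-18 lie side by side between positions 12109067 and 12127932 (WS220). The highest count of any of these 6 genes was 7, lgc-17 had 0 counts in all 8 libraries, and lgc-15 and lgc-16 had 1 count each. Lgc-16 and lgc-17 were listed with the same TPM in larvae replicate 1 (0.0721) and in embryo replicate 4 (0.0219) although both had 0 counts there, so the deposited levels of these 2 genes cannot be separated. Lgc-51, of the monoamine-gated group, had 1, 1, 0 and 2 counts in larvae, against 26, 7, 3 and 5 counts in embryos. Its embryo over larvae ratio of scaled counts was 6.04 (95% exact interval 2.19 to 23.2, counting error only). Glr-9, the other way round, had 1, 4, 6 and 9 counts in larvae, against 2, 1, 0 and 0 counts in embryos, a larvae over embryo ratio of 11.3 (3.36 to 59.5).

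Larvae and embryos were compared for the 70 channel genes with enough reads to test, a set that differs from the 70 detected in larvae. Under edgeR's quasi-likelihood test with TMM scaling and Benjamini-Hochberg adjustment over all genes, 42 of them were higher in larvae, 9 were lower and 19 did not pass. That is 60% higher, where 36.9% of all genes tested were higher, and 12.9% lower, where 37.2% of all genes were lower. In 36 of them all larval libraries lay above all embryo libraries in CPM (51.4%, against 33.3% of all genes), and in 10 all lay below (14.3%, against 35.6% of all genes). The median log2 fold change, larvae over embryos, was 1.05 over these channel genes and -0.03 over all genes tested.

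These numbers moved with the setting. With library totals in place of TMM factors the median of all genes tested was -0.53, a shift of -0.49, and with limma on log2(TPM + 0.1) it was -0.76, a shift of -0.73. The TPM setting changes more than the scaling of the libraries, since it also takes another test, another filter, levels per gene length and an added 0.1 TPM, near which the lowest genes lie, and these parts were not separated. Of the 70 channel genes, 27 were then higher and 17 lower under library totals, and 18 higher and 18 lower in TPM. Of all genes tested, 3683 of 13571 were higher and 6607 lower with library totals, and 3521 of 16282 higher and 8413 lower in TPM. As a share of calls only, not of genes tested, the higher ones in all genes were 49.7% with TMM, 35.8% with library totals and 29.5% in TPM. Under all 3 settings 18 channel genes were called higher (25.7%, against 21.6% of all genes) and 9 lower (12.9%, against 37.2% of all genes). The share higher under every setting was thus close to that of all genes, and the share lower was below theirs. In the text below a rise or fall is a call under TMM, and calls that hold under all 3 settings are named as such.

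**Figure D1:**
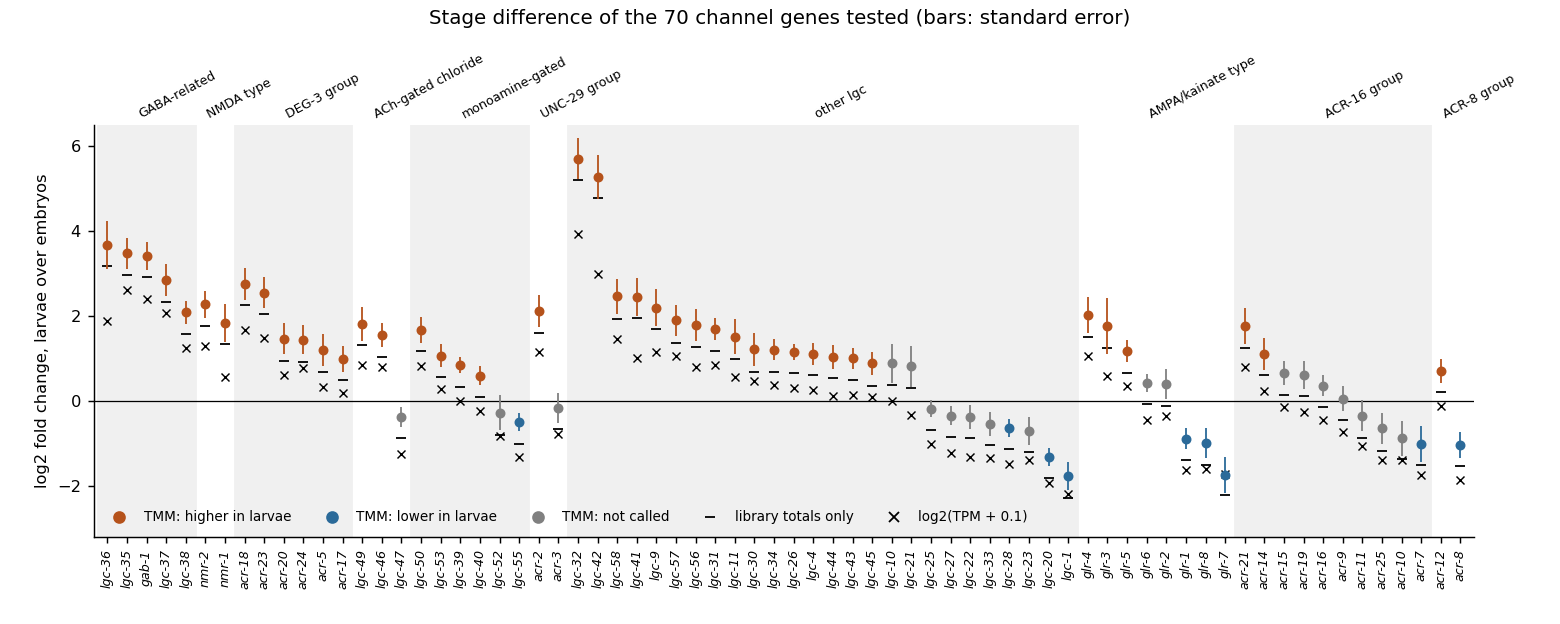
Log2 fold change, larvae over embryos, of the 70 channel genes tested, by receptor group; circles and bars are the TMM estimate and its standard error, dashes the estimate with library totals and crosses the difference on the log2(TPM + 0.1) scale. All 5 GABA-related and all 6 DEG-3 group genes shown lie above 0 on every scale, while the AMPA and kainate type genes spread on both sides of it.

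The GABA-related genes of this set were all called higher under the 3 settings. GABA is the main inhibitory transmitter of the worm's body-wall and head muscles. All 5 (gab-1, lgc-35, lgc-36, lgc-37 and lgc-38) were higher in larvae under all 3 settings, with no overlap between the stages in CPM. Their median log2 fold change was 3.42. Of all genes, 21.6% were higher under all 3 settings, 33.3% had all larvae above all embryos in CPM, and the median was -0.03. Gab-1 (ZC482.1, chromosome III, 12771777 to 12779625 in WS220) encodes a subunit of the GABA-A receptor family. In replicate order it had 5.91, 12.4, 10.7 and 10.8 CPM in larvae, against 1.36, 0.729, 0.669 and 0.854 CPM in embryos. Every larval library was above every embryo library, with a log2 fold change of 3.42 ± 0.33 (SE, adjusted p = 2.24e-06). Its level was 3.48 ± 1.10 TPM in larvae and 0.575 ± 0.232 TPM in embryos (SD, n = 4 each).

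Lgc-35 (Y46G5A.26, chromosome II, 12836409 to 12840088) encodes a subunit of a cation channel that GABA opens, an excitatory GABA receptor. It had 4.97, 4.65, 5.23 and 5.64 CPM in larvae, against 0.755, 0.324, 0.446 and 0.225 CPM in embryos. Its larval values varied least among the 10 largest rises, with a coefficient of variation of 8.16%. The log2 fold change was 3.47 ± 0.36 (adjusted p = 4.05e-06). Lgc-36 (F07B10.5, chromosome V, 11256503 to 11258978) stood on few reads, with 15, 36, 13 and 17 counts in larvae, against 4, 1, 0 and 5 counts in embryos. It had enough reads to test only through the larval libraries. Its log2 fold change was 3.68 ± 0.56 (adjusted p = 9.46e-05), the least precise of the group. Without embryo replicate 4 it was 4.30.

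Lgc-37 (ZC482.5, chromosome III, 12785053 to 12793027) begins 5427 bases after the end of gab-1, and both neighbours rose. It had 4.89, 6.6, 6.31 and 4.64 CPM in larvae, against 1.39, 0.527, 0.669 and 0.405 CPM in embryos, a log2 fold change of 2.85 ± 0.38 (adjusted p = 3.14e-05). Its locus shares 1799 bases with BE10.1, and whether the counting used the strand is not given in the sources used here. Lgc-38 had 6.09, 3.85, 4.75 and 4.26 CPM in larvae, against 1.39, 1.09, 1.06 and 0.854 CPM in embryos. It rose least in the group, by 2.08 ± 0.28 on the log2 scale (adjusted p = 3.07e-05). Of the related subunits with other symbols, unc-49 of the muscle GABA receptor had a log2 fold change of 1.83 and exp-1, a GABA-gated cation channel of the gut muscles, one of 1.09. Unc-49 was called higher under all 3 settings, while exp-1 was not called with library totals (0.58) or in TPM (0.23).

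Both NMDA receptor subunits were higher in larvae, where 36.9% of all genes tested were higher. NMDA receptors of the worm act in the command interneurons that set the direction of crawling. Nmr-2 (T01C3.10, chromosome V, 15005921 to 15011643) had 4.29, 5.15, 6.25 and 5.45 CPM in larvae, against 1.54, 0.567, 1.28 and 0.944 CPM in embryos. Its log2 fold change of 2.27 ± 0.32 (adjusted p = 5.28e-05) held under all 3 settings, and its locus shares 461 bases with hrde-2. Nmr-1 (F07F6.6, chromosome II, 5440226 to 5446688) had 1.46, 1.10, 0.475 and 1.0 CPM in larvae, against 0.414, 0.203, 0.112 and 0.315 CPM in embryos. The stages did not overlap in CPM and the log2 fold change was 1.84 ± 0.45 (adjusted p = 0.00309). In TPM its levels, 0.187 ± 0.072 in larvae and 0.0934 ± 0.0522 in embryos (SD, n = 4 each), overlapped and the difference did not pass (limma, adjusted p = 0.154).

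The AMPA and kainate type receptors were called in both directions, in shares near those of all genes tested (36.9% higher and 37.2% lower). Of the 8 tested, 3 were higher (glr-3, glr-4, glr-5), 3 lower (glr-1, glr-7, glr-8) and 2 not called, with a median log2 fold change of 0.41 that turned to -0.10 with library totals and -0.41 in TPM. The 3 that fell did so under all 3 settings, whereas none of the 3 that rose was called in TPM. Glr-1 (C06E1.4, chromosome III, 8584106 to 8588535) encodes the AMPA type subunit that carries glutamate signals from touch neurons of the nose to the command interneurons. It had 5.06, 5.35, 3.87 and 4.89 CPM in larvae, against 12.5, 8.75, 6.75 and 7.51 CPM in embryos. The stages did not overlap, and glr-1 was lower in larvae with a log2 fold change of -0.89 ± 0.25 (adjusted p = 0.00605). Per length its level was 0.958 ± 0.185 TPM in larvae and 3.26 ± 1.17 TPM in embryos (SD, n = 4 each).

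Glr-7 and glr-8, which are known from neurons of the pharynx, were low genes. Glr-7 (C43H6.9, chromosome X, 2413902 to 2417885) had 1, 10, 4 and 4 counts in larvae, against 41, 29, 19 and 17 counts in embryos. It had enough reads to test only through the embryo libraries. Its log2 fold change was -1.74 ± 0.42 (adjusted p = 0.00265). Glr-8 (F22A3.3, chromosome X, 6506847 to 6509845) had 0.60, 1.15, 0.611 and 0.815 CPM in larvae, against 2.29, 1.34, 1.17 and 1.62 CPM in embryos. Its log2 fold change of -0.999 ± 0.35 (adjusted p = 0.0209) lost its call without larvae replicate 3 (adjusted p = 0.0534) and without embryo replicate 1 (adjusted p = 0.0597). Glr-4 was the glr- gene that rose most, with 41.1, 20.9, 11.8 and 13.2 CPM in larvae, against 8.51, 5.23, 3.57 and 3.82 CPM in embryos. The larval values differed 3.48-fold among themselves, and the log2 fold change was 2.02 ± 0.42 (adjusted p = 0.0009). Its locus shares 1010 bases with srlf-1. Glr-3, a receptor also known as a cold sensor, was called (adjusted p = 0.0308) on overlapping stages and lost the call in 6 of the 8 fits that left out 1 library, those without larvae replicates 1, 2 or 4 or embryo replicates 2, 3 or 4 (adjusted p = 0.0523 to 0.0904). Without embryo replicate 1 its log2 fold change was 2.57, against 1.75 with it. Glr-5 had a log2 fold change of 1.17 ± 0.26 (adjusted p = 0.00168), and glr-6 and glr-2, the partner of glr-1, were not called at 0.42 and 0.40, values that turned below 0 with library totals and in TPM.

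The nicotinic subunits were read by the groups of their family. All 6 members of the DEG-3 group were higher in larvae, with no overlap in CPM and a median log2 fold change of 1.45. Of all genes tested, 36.9% were higher and 33.3% had all larvae above all embryos in CPM. Only acr-18 and acr-23 of them were called under all 3 settings. Acr-23 (F59B1.9, chromosome V, 3651647 to 3659486) encodes a betaine-gated channel and the target of the anthelmintic monepantel. It had 3.26, 3.20, 2.24 and 2.32 CPM in larvae, against 0.755, 0.324, 0.446 and 0.270 CPM in embryos, a log2 fold change of 2.55 ± 0.37 (adjusted p = 5.91e-05). Acr-18 (F28F8.1, chromosome V, 15551136 to 15559128) had 3.09, 2.90, 3.19 and 1.32 CPM in larvae, against 0.390, 0.486, 0.279 and 0.360 CPM in embryos. Larvae replicate 4 was the low one, and the log2 fold change was 2.75 ± 0.37 (adjusted p = 3.29e-05). For acr-5, acr-17, acr-20 and acr-24 the log2 fold changes were 1.19, 0.99, 1.46 and 1.44. The 2 founding genes of the group, which have other symbols, were also higher: des-2 by 2.76 and deg-3 by 2.12 on the log2 scale.

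The ACR-16 group, whose name-giving member forms the nicotine-sensitive receptor of body-wall muscle, was mostly not called. Of its 10 genes tested, 2 were higher (acr-14, acr-21), acr-7 was lower and 7 were not called, where 36.9% of all genes were higher and 37.2% lower. The median log2 fold change of 0.20 turned to -0.30 with library totals and -0.59 in TPM. Acr-16 (F25G6.3, chromosome V, 8561194 to 8564298) had 4.11, 5.55, 3.87 and 6.20 CPM in larvae, against 4.26, 4.62, 3.51 and 3.06 CPM in embryos. The stages overlapped and the difference of 0.35 ± 0.25 on the log2 scale did not pass (adjusted p = 0.222), with a sign that turned under library totals (-0.15) and in TPM (-0.45). The body-wall muscle markers summed far higher in the same larval libraries, as given above, and any relation of that sum to acr-16 was not tested. Acr-7 (T09A5.3, chromosome II, 7845610 to 7849745) had 1.11, 1.20, 0.204 and 1.25 CPM in larvae, against 2.17, 1.95, 1.62 and 1.93 CPM in embryos. Its log2 fold change of -1.02 ± 0.42 (adjusted p = 0.0452) was near the threshold, was called under all 3 settings and lost the call in 6 of 8 fits, those without larvae replicates 2 or 3 or any 1 embryo library (adjusted p = 0.0516 to 0.0899). Its locus shares 1178 bases with T09A5.4. The other 6 uncalled genes of the group, acr-15, acr-19, acr-9, acr-11, acr-25 and acr-10, had log2 differences of 0.65, 0.61, 0.05, -0.36, -0.64 and -0.88 with stages that overlapped in CPM, and the first 3 turned sign under at least 1 other setting.

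The subunits related to levamisole-type receptors were called in both directions. Acr-8 (ZC504.2, chromosome X, 10412703 to 10416596), whose counterpart in the parasite Haemonchus contortus is part of the levamisole receptor, had 4.89, 9.25, 3.39 and 8.02 CPM in larvae, against 17.6, 10.9, 12.9 and 11.3 CPM in embryos. It was lower in larvae under all 3 settings, with a log2 fold change of -1.04 ± 0.31 (adjusted p = 0.0093). Acr-12, of the same group and known from motor neurons, was called higher at 0.70 ± 0.27 (adjusted p = 0.0361). It turned to -0.13 in TPM and lost the call without larvae replicate 2 or embryo replicates 2, 3 or 4 (adjusted p = 0.0846 to 0.134). Acr-2 and acr-3 lie 0.235 kb apart on the X chromosome. Acr-2, a subunit of the receptor that sets the excitability of cholinergic motor neurons, had 3.43, 3.20, 2.72 and 2.13 CPM in larvae, against 1.15, 0.405, 0.502 and 0.495 CPM in embryos (log2 fold change 2.11 ± 0.37, adjusted p = 0.000295), a call that held under all 3 settings. Its neighbour acr-3 had 0.686, 0.850, 0.475 and 0.689 CPM in larvae, against 0.877, 0.892, 0.836 and 0.450 CPM in embryos, and the difference of -0.17 ± 0.35 did not pass (adjusted p = 0.667). The only UNC-38 group gene in the set, acr-6, had 6 to 11 counts in larvae and 1 to 7 counts in embryos and was not tested. Of the related subunits with other symbols, unc-29 (-0.47), unc-38 (-0.38), unc-63 (-0.24) and lev-1 (0.28) were not called under TMM. The first 3 were lower with library totals and in TPM, and lev-8 (-1.55) was lower under all 3 settings. These subunits were named after their values were seen.

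**Figure D2:**
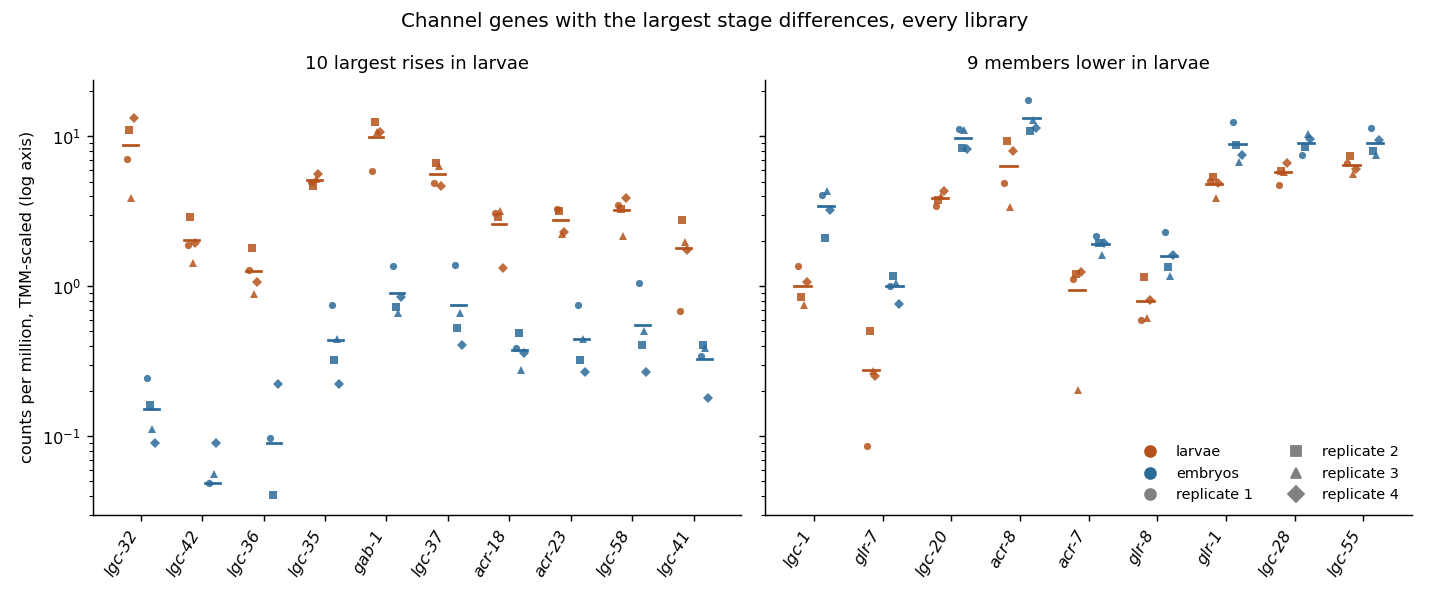
TMM-scaled CPM on a log axis in every library for the 10 channel genes with the largest rises and the 9 that fell; larvae stand left of embryos, bars are means over 4 libraries, and 2 points at 0 counts (lgc-42 in embryo replicate 2 and lgc-36 in embryo replicate 3) are not drawn. No larval point overlaps the embryo points of the same gene, and the gaps of lgc-32 and lgc-42 are the widest.

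Anion and cation channels gated by monoamines, and anion channels gated by acetylcholine, gave mixed results. In the monoamine-gated group 4 of 6 tested genes rose and lgc-55 fell, where 36.9% of all genes tested were higher and 37.2% lower. Of the rises, lgc-39 and lgc-40 turned sign in TPM. Under all 3 settings only lgc-50 was higher and only lgc-55 lower, where 21.6% and 37.2% of all genes were. Lgc-50, a serotonin-gated cation channel, had 14.7, 19.3, 11.1 and 16.5 CPM in larvae, against 6.92, 3.24, 6.13 and 2.92 CPM in embryos (log2 fold change 1.67 ± 0.31, adjusted p = 0.000406). Lgc-53, a dopamine-gated chloride channel, had a log2 fold change of 1.06 ± 0.26 under TMM. Lgc-55 (Y113G7A.5, chromosome V, 20023015 to 20036573) encodes the tyramine-gated chloride channel that stops head movement during escape. It had 6.6, 7.4, 5.64 and 6.08 CPM in larvae, against 11.4, 8.02, 7.53 and 9.49 CPM in embryos. The stages did not overlap, yet the log2 fold change was only -0.50 ± 0.21 (adjusted p = 0.0486) and lost its call in 5 of 8 fits, those without larvae replicates 1, 3 or 4 or embryo replicates 1 or 4 (adjusted p = 0.0656 to 0.104).

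Of the acetylcholine-gated chloride group, lgc-46 and lgc-49 were higher and lgc-47 was not called. Lgc-46, which restrains transmitter release from cholinergic motor neurons, had 14.4, 16.4, 17.2 and 16.7 CPM in larvae, against 9.14, 3.53, 4.63 and 4.5 CPM in embryos. Its log2 fold change of 1.56 ± 0.28 (adjusted p = 0.000359) held under all 3 settings. The whole of its locus, 10783 bases, lies within acsd-1, so its counts are uncertain if strand was not used. Lgc-49 had 3.17, 2.05, 1.63 and 1.07 CPM in larvae, against 0.83, 0.527, 0.390 and 0.405 CPM in embryos. Its log2 fold change was 1.81 ± 0.40 (adjusted p = 0.00158), and the difference did not pass in TPM. Lgc-47 had a log2 fold change of -0.38 ± 0.24 (adjusted p = 0.167) and was lower under library totals and in TPM. The fourth gene, lgc-48, had at most 2 counts in any library. Acc-1, acc-2, acc-3 and acc-4, of the same group under other symbols, were not called under TMM. Their log2 differences were 0.11, 0.88, 0.71 and 0.59, and they were named after these values were seen.

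The largest rises of all were in lgc- genes outside these groups, whose ligands are less settled. Lgc-32 (T19D7.1, chromosome X, 672651 to 676224) had 7.03, 11.1, 3.87 and 13.3 CPM in larvae, against 0.244, 0.162, 0.112 and 0.0899 CPM in embryos. The larval libraries differed 3.43-fold among themselves and all exceeded the embryos by over an order of magnitude (log2 fold change 5.70 ± 0.49, adjusted p = 8.79e-07). Lgc-42 (Y39A3B.2, chromosome III, 1997831 to 2002428) had 22, 58, 21 and 31 counts in larvae, against 2, 0, 1 and 2 counts in embryos. Since no embryo library passed 3 counts, its size is given as a ratio of scaled counts, larvae over embryos, of 44.8 (95% exact interval 18.7 to 140.4, counting error only; edgeR adjusted p = 2.70e-06). Both genes were called higher under all 3 settings. Their embryo counts were at most 10 for lgc-32 and 2 for lgc-42, so both had enough reads to test only through the larval libraries. Their rank and adjusted p were therefore not read as independent support for a rise.

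Lgc-58 (C45B2.4, chromosome X, 6070462 to 6081798) had 3.51, 3.30, 2.17 and 3.89 CPM in larvae, against 1.05, 0.405, 0.502 and 0.270 CPM in embryos (log2 fold change 2.46 ± 0.41, adjusted p = 0.000181). Lgc-41 (C39B10.2, chromosome X, 10454249 to 10460442), a betaine-gated channel subunit, had 0.686, 2.75, 1.97 and 1.75 CPM in larvae, against 0.341, 0.405, 0.390 and 0.180 CPM in embryos (log2 fold change 2.45 ± 0.44, adjusted p = 0.000337). Larvae replicate 1 was the low one for lgc-41, with 8 counts, and in TPM the stages of both genes overlapped. Under all 3 settings both were nevertheless called higher, and lgc-41 had enough reads to test only through the larval libraries. Over the 26 tested lgc- genes outside the named groups, 16 rose (61.5%, against 36.9% of all genes) and 3 fell (11.5%, against 37.2%). Under all 3 settings 7 were higher (26.9%, against 21.6% of all genes) and 3 lower (11.5%, against 37.2%). The share higher under all 3 settings was thus near that of all genes.

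The other 12 rises among these lgc- genes had log2 fold changes of 0.88 to 2.19. In falling order they were lgc-9, lgc-57, lgc-56, lgc-31, lgc-11, lgc-30, lgc-34, lgc-26, lgc-4, lgc-44, lgc-43 and lgc-45, and of them lgc-9, lgc-57 and lgc-31 were called under all 3 settings. Lgc-31 had 12.9, 23.1, 17.5 and 19.6 CPM in larvae, against 8.04, 4.58, 4.68 and 5.31 CPM in embryos (log2 fold change 1.68 ± 0.25, adjusted p = 8.10e-05). The stages of lgc-31 did not overlap, and its locus shares 1971 bases with F21A3.3. Lgc-26 was the most even of the 12 across embryos, with 15.1, 19.6, 20.7 and 19.7 CPM in larvae, against 9.63, 8.06, 7.75 and 8.27 CPM in embryos (log2 fold change 1.15 ± 0.18, adjusted p = 0.000115). Stages overlapped in CPM for lgc-30, lgc-44 and lgc-45, and lgc-30 shares 5208 bases with F58H7.1. Of the 7 not called, lgc-22, lgc-23, lgc-25, lgc-27 and lgc-33 were called lower both with library totals and in TPM.

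The 3 that fell in that group were lgc-1, lgc-20 and lgc-28. Lgc-1 (T05B4.1, chromosome V, 4135013 to 4138810) had 1.37, 0.850, 0.747 and 1.07 CPM in larvae, against 4.07, 2.11, 4.35 and 3.24 CPM in embryos, the largest fall of the set by fitted value (log2 fold change -1.78 ± 0.33, adjusted p = 0.000413). Lgc-20 (B0491.4, chromosome II, 11340070 to 11343466) had 3.43, 3.75, 4.01 and 4.32 CPM in larvae, against 11.2, 8.43, 11 and 8.23 CPM in embryos. Both stages were tight for lgc-20, and its log2 fold change of -1.32 ± 0.21 had the lowest adjusted p of the falls (0.000138). Lgc-28 (D2062.12, chromosome II, 2625135 to 2627075) had 4.71, 5.90, 5.77 and 6.64 CPM in larvae, against 7.51, 8.47, 10.4 and 9.58 CPM in embryos (log2 fold change -0.64 ± 0.21, adjusted p = 0.0154). Against a fold change of 2, 2 of all 9 falls and 23 of the 42 rises still passed. The share of all genes that passed this stricter test is not given here, so the 2 counts were not read as a contrast.

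By level per length, a few lgc- genes made up much of the set at both stages. Summed over all 90 genes the level was 247.9 ± 41.6 TPM in larvae and 329.3 ± 93.8 TPM in embryos (SD, n = 4 each), a ratio of 0.753, whereas in TMM-scaled CPM the ratio was 1.41. Lgc-22, lgc-34, lgc-21 and lgc-27 together took 36.4% to 54.9% of the summed TPM in larvae and 52.9% to 57.01% in embryos. Without these 4 the sum was 132.5 ± 21.6 TPM in larvae and 146.1 ± 41.1 TPM in embryos (SD, n = 4 each), a ratio of 0.907 with stages that overlapped. In TMM-scaled CPM the same genes summed to 336.7 to 422.5 in larvae and 192.7 to 293.8 in embryos, a ratio of 1.67 with stages that did not overlap. The median gene of the set had 0.698 to 1.19 TPM in the larval libraries and 0.547 to 1.10 TPM in the embryo libraries.

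Lgc-22 (F15E6.2, chromosome IV, 4301301 to 4304426) was the most abundant by mean TPM at both stages, with 46.05, 29.7, 42.1 and 16.3 TPM in larvae, against 110, 59.2, 78.3 and 72.4 TPM in embryos. In TPM its stages did not overlap and it was lower in larvae (limma, adjusted p = 0.00403), but under TMM the log2 fold change of -0.38 ± 0.29 did not pass (adjusted p = 0.242). Lgc-27 (Y74E4A.1, chromosome II, 4649091 to 4653273) behaved likewise, with 24.3, 24.1, 26.03 and 11.3 TPM in larvae, against 62.5, 39.2, 45.9 and 46.5 TPM in embryos and a log2 fold change of -0.35 ± 0.23 under TMM (adjusted p = 0.185). Larvae replicate 4 was the lowest larval library for both genes and for lgc-21. Lgc-47 (F47A4.1, chromosome X, 9801031 to 9807604) was among the 5 most abundant in embryos only, and had 3.24, 6.04, 4.76 and 4.82 TPM in larvae, against 14.5, 8.38, 13.5 and 9.02 TPM in embryos.

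Lgc-34 (T27A1.4, chromosome II, 526591 to 530363) had 47.1, 71.3, 63.5 and 85.9 CPM in larvae, against 42.2, 21.4, 24.4 and 28.2 CPM in embryos. It was higher in larvae under TMM (log2 fold change 1.20 ± 0.24, adjusted p = 0.000746), while its 22.7 to 39.4 TPM in larvae overlapped its 18.4 to 40.2 TPM in embryos. Lgc-39 (F09G2.5, chromosome V, 7175551 to 7178762), a channel opened by acetylcholine and monoamines, had a log2 fold change of 0.84 ± 0.19 under TMM (adjusted p = 0.0015), a difference that was -0.01 in TPM. Its level was 9.06 ± 1.11 TPM in larvae and 9.24 ± 2.22 TPM in embryos (SD, n = 4 each). Lgc-21 (C33G3.3, chromosome X, 14064246 to 14067915) split the larval libraries, with 25.2, 106.04, 103.95 and 23.8 CPM in larvae, against 55.7, 26.7, 35.2 and 30.2 CPM in embryos. Larvae replicates 2 and 3 lay above every embryo library and replicates 1 and 4 below every one, and the log2 fold change of 0.81 ± 0.47 did not pass (adjusted p = 0.141). Without larvae replicate 1 or 4 it was called higher, at 1.07 (adjusted p = 0.0283) and 1.09 (adjusted p = 0.0342).

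**Figure D3:**
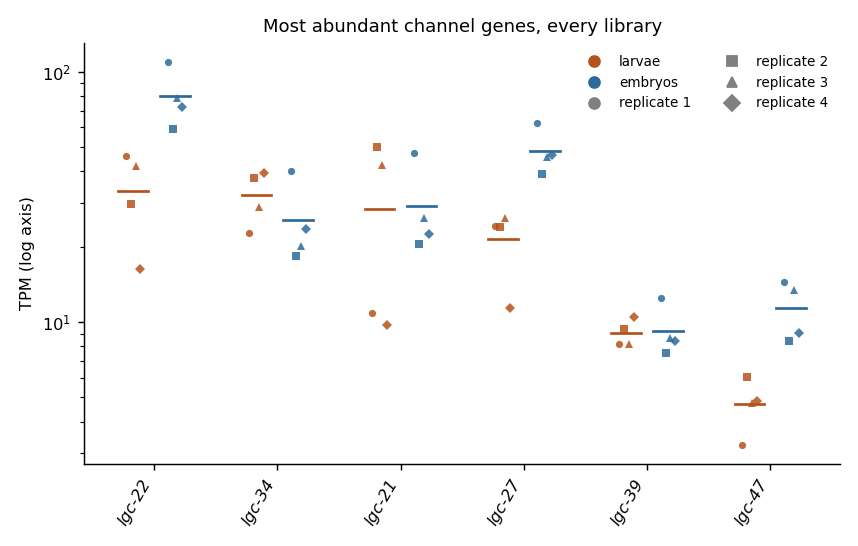
TPM on a log axis in every library for the 6 channel genes among the 5 most abundant of either stage; larvae stand left of embryos and bars are means over 4 libraries. Lgc-22, lgc-27 and lgc-47 have every larval point below every embryo point, and the larval points of lgc-21 fall in pairs near 10 and above 40 TPM.

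One embryo library stood apart for this set. Embryo replicate 1 was the highest of the 4 embryo libraries for 58 of the 70 genes tested, whereas it was the highest for 35.3% of all genes tested. Its median ratio to the mean of the other 3 was 1.63 over the channel genes and 0.996 over all genes. Marker lists of several tissues also had their extreme there. The synaptic and neuronal list was highest in it, at 1759 CPM, against 1359 to 1668 CPM in the other 3, and so were the markers of body-wall muscle (4260 CPM, against 3258 to 3542 CPM), pharyngeal muscle (711.9 CPM, against 394.6 to 473.1 CPM) and intestine (1515 CPM, against 1026 to 1347 CPM). Germline and maternal markers were lowest in it (443.2 CPM, against 734.3 to 1089 CPM), as were epidermis markers (250.0 CPM, against 319.1 to 334.3 CPM). The title of this library joins 2 library names, and it held the most gene counts (31292935). Among larvae the same was true of replicate 2 (22419153). What a joined title marks is not labelled and was not tested. The place of embryo replicate 1 in the mix of embryonic stages is not labelled either, and its part in the values was not tested. Without it, 45 channel genes were higher and 6 lower of 71 tested, with a median log2 fold change of 1.23. The same numbers over all genes in that fit are not given here, so the shift was not read as particular to the channel genes. In larvae, replicate 2 was the highest library for 28 of the 70 genes and the lowest for 2, where it was so for 23.98% and 20.01% of all genes. Larvae replicates 1 and 3 were the lowest for 29 and 28 of the 70, against 33.8% and 24.6% of all genes. Of the 51 calls, 43 (37 higher and 6 lower) held in all 8 fits that each left out 1 library, and the direction turned in none. The other 8 were glr-3, acr-14, lgc-45, acr-12, lgc-40, lgc-55, glr-8 and acr-7.

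**Figure D4:**
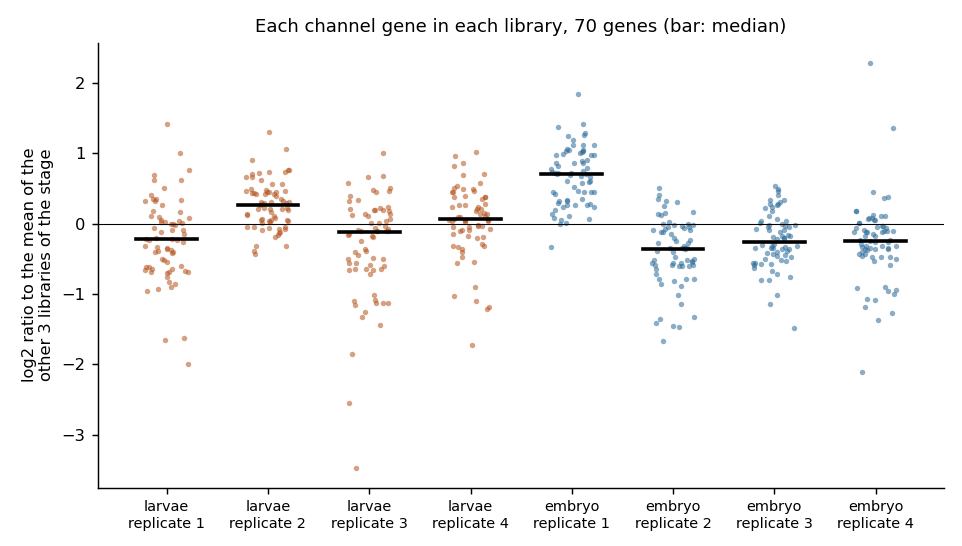
For each library, the log2 ratio of each of the 70 tested channel genes to its mean in the other 3 libraries of the same stage, in TMM-scaled CPM; black bars are medians over genes and 2 values at 0 counts are not drawn. The points of embryo replicate 1 lie mostly above 0, and those of the other embryo libraries mostly below.

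Genes that act with these channels were read from fixed lists against the same background (36.9% of all genes higher and 37.2% lower under TMM). Of 24 related subunits with other symbols, 12 were higher and 1 lower, led by glc-1 (4.51), a glutamate-gated chloride channel and ivermectin target, des-2 (2.76), mod-1 (2.31), a serotonin-gated chloride channel, and avr-15 (2.15) on the log2 scale. The 1 lower, lev-8 (-1.55), a levamisole receptor subunit, was picked after its value was seen. Of 20 genes for transmitter synthesis and transport, 14 were higher and 1 lower. They were led by the glutamate transporter glt-1 (4.90), the choline transporter cho-1 (2.72), the GABA-synthesising enzyme unc-25 (2.66) and the octopamine-synthesising enzyme tbh-1 (2.18). Their 1 fall, the acetylcholinesterase ace-3 (-1.36), was likewise picked after its value was seen.

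With library totals the background was 3683 genes higher and 6607 lower of 13571 tested. Of 22 metabotropic transmitter receptors, 20 were higher and 0 lower, and 16 and 0 with library totals. The largest log2 fold changes were in ser-6 (2.91), an octopamine receptor, and the dopamine receptors dop-1 (2.87), dop-3 (2.59) and dop-2 (2.48). Of 24 synaptic and neuronal genes, 15 were higher and 2 lower, and 9 and 6 with library totals. They were led by the neuropeptide-processing enzymes egl-3 (3.87) and egl-21 (3.76), with rgef-1 (2.45) and ida-1 (2.28) next. The 2 falls, unc-119 (-1.70) and unc-33 (-0.69), were picked after their values were seen. Proteins that assemble, cluster or modify the receptors gave both directions, with 6 higher and 5 lower of 15, and 1 and 6 with library totals. Sol-2, an auxiliary subunit of the GLR-1 receptor (-1.28), and emc-6, of the membrane complex that helps build nicotinic receptors (-1.17), fell, and oig-4 (1.21) and molo-1 (1.20), which cluster and modify levamisole receptors, rose under TMM.

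By position, 27 of the 90 channel genes (30.0%) lie on the X chromosome, which holds 13.8% of all genes in the table. Of the 20 of them that were tested, 9 were higher and 3 lower under TMM, where 40.3% of all X genes tested were higher and 33.6% lower. Chromosome V holds 19, of which 11 of 15 tested were higher and 2 lower (46.2% and 28.85% of all its genes). On chromosome II 9 of 13 tested were higher and 3 lower (33.55% and 41.3%), on chromosome III 8 of 10 and 1 (32.4% and 40.8%), on chromosome IV 4 of 9 and 0 (38.15% and 36.3%), and on chromosome I 1 of 3 and 0 (28.7% and 44.4%). Pairs of channel genes lying within 20 kb of each other did not all share a call. Gab-1 and lgc-37 rose together, acr-2 rose beside acr-3, which was not called, and acr-15 and acr-16 were both not called.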

How the data were processed

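The counts were deposited by the authors as raw reads per gene: reads were aligned to WS220 with Tophat and counted with HTSeq (0.6.1p1 in the submitters' notes, which also name CASAVA 1.8, Cufflinks 2.2.0 and DESeq2 with no role or, for DESeq2, no version). The strand setting of the counting is not given in the sources used here. The TPM values were also deposited by the authors, scaled for gene length and to 1000000 per library, with the method not given; 14 columns of other libraries were not used. Further deposited tables hold the authors' comparison with wild type; from these only gene names and WormBase identifiers were read. Loci in the TPM table count starts from 0, so 1 was added. The 5 HTSeq summary rows were left out. Reads in no gene were 3.26% to 6.06% and ambiguous reads 0.861% to 1.07% of these reads and the gene counts together.

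Symbols came from WormBase identifiers for 87 members and from RefSeq locus tags for 3 (lgc-17, glr-9, glr-10). The members and lists were chosen with earlier results of these data known. Larvae were compared with embryos over all genes with edgeR 4.0.16 in R 4.3.3 (filterByExpr, TMM, quasi-likelihood test, stage only, adjusted p under 0.05 as threshold); 70 of 90 members passed the filter, which needs enough reads in as many libraries as 1 stage holds, so a gene high in 1 stage could pass through that stage. CPM is per 1000000 reads of the TMM-scaled library. The SE of a log2 fold change was derived as its absolute value over the square root of the quasi-likelihood F. Alternatives were library totals, limma 3.58.1 on log2(TPM + 0.1), DESeq2 1.42.0, other filters, a fold change of 2, a replicate block and each library left out. The scripts were tested on simulated data. By rule, the genes given library by library included the 10 largest rises and up to 10 largest falls with stages that do not overlap. The rule also took the 5 most abundant of each stage, and gab-1, nmr-1, nmr-2, glr-1 and acr-16. Acr-2, acr-3, glr-3, glr-4, glr-9, lgc-6, lgc-12, lgc-26, lgc-31, lgc-38, lgc-46, lgc-49, lgc-50 and lgc-51 were added after their values were seen. A member at or under 3 counts in every library of a stage was given as a ratio with a 95% exact interval. There were no molecular identifiers, so intervals and detection limits cover counting error only. Library depth was 13687095 to 31292935 gene counts, which sets the precision of low genes.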

Additional observations from a re-analysis of the deposited data

Results flagged for a closer look

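Among 60 sets of 4 libraries examined for the named channel genes and sums, 4 had a lowest or highest library far from the other 3 by Dixon's criterion, where chance alone gives about 3. Acr-18, a nicotinic subunit of the DEG-3 group, had 1.32 CPM in larvae replicate 4, against 2.90 to 3.19 CPM in the other larvae. Acr-7, of the ACR-16 group, had 0.204 CPM in larvae replicate 3, against 1.11 to 1.25 CPM in the others, which is 3 counts in that library. Lgc-39, a channel opened by acetylcholine and monoamines, had 31.4 CPM in larvae replicate 4, against 23.2 to 24.4 CPM in the others. Summed without the 4 most abundant members, the channel genes reached 207.6 TPM in embryo replicate 1, against 122.2 to 128.6 TPM in the other embryos.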

How the results depend on the processing

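The number of channel genes called higher in larvae was 42, against 27 with library totals, 19 of 78 with limma on log2(TPM + 0.1) and 23 against a fold change of 2, and the number lower was 9, against 17, 20 and 2. Leaving out 1 library at a time gave 38 to 45 higher and 6 to 9 lower. DESeq2, its size factors, no filter and a minimum of 10 counts moved neither number by over 1.5 times. Detection fell to 43 genes in larvae and 39 in embryos at a mean of 1 TPM, and ranged over 70 to 73 and 65 to 68 without 1 library. The summed level ratio of 0.753 ranged over 0.696 to 0.875 without 1 library and was 1.41 in TMM-scaled CPM, an alternative chosen after seeing the data, as were DESeq2 without a filter and the sum without the 4 most abundant genes. With library totals the related subunits had 4 lower, the assembly list 1 higher, the transmitter list 2 lower and the synaptic list 9 higher and 6 lower. Over all 13571 genes tested, 3683 were then higher and 6607 lower. Signs turned in TPM for lgc-39 (-0.00899), lgc-21 (-0.34), acr-12 (-0.13), acr-15 (-0.15), acr-19 (-0.27) and lgc-40 (-0.25). They turned with library totals and in TPM for glr-6 (-0.080 and -0.46), glr-2 (-0.12 and -0.37), acr-16 (-0.15 and -0.45) and acr-9 (-0.46 and -0.73). Acr-9, not called at 0.05, was also at -0.00156 with no filter and ranged over -0.12 to 0.25 without 1 library, and lgc-52, not called, ranged over -0.51 to 0.059, the highest being without embryo replicate 1. Library totals change only the scaling, whereas the TPM alternative also changes the test, the filter, the scaling for length and the added constant, and which of them is nearer to RNA per worm was not tested. Genes with under about 10 counts a library, such as glr-7, rest on few reads.

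The replicate numbers shared by the stages did not pair the libraries: the correlation of deviations between same-numbered libraries was -0.146, -0.194, 0.0747 and -0.0699 over 13571 genes, and 1 of 4 correlated best with its own number. With the number as a block, 40 channel genes were higher and 7 lower, and acr-12, lgc-40, lgc-55 and glr-8 lost their call.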
